A study of Mus musculus with 15 samples.

Results

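The transcripts described here are those of 6 muscle myosin heavy chain genes, Myh1, Myh2, Myh3, Myh4, Myh7 and Myh8, in the gastrocnemius of male C57BL/6 mice. The members were all array probes to which the platform annotation gives one of these symbols, whatever their values. They came to 6 of the 25697 probes on the array and to 4 of the 6 genes, since Myh1 and Myh8 had 2 probes each and Myh4 and Myh7 had 1 probe each. Myh2 and Myh3 had no probe under their symbol and were not analysed here. RNA from the gastrocnemius, a calf muscle, was hybridised to Illumina MouseRef-8 bead arrays, with 1 array per mouse. The labels do not say which part of the muscle was taken. Each of the 3 groups held 5 mice, aged 5 months (young), 17 months (middle-aged) or 28 months (old). All were males of 1 strain with no treatment given in the labels, and age was the one difference between groups that the labels state.

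Myosin heavy chain is the motor of the thick filament: its head splits ATP and pulls on actin, and the isoform a fibre makes largely sets how fast that fibre shortens. Adult mouse fibres use Myh7 in slow fibres and Myh2, Myh1 and Myh4 in fast fibres of the types 2A, 2X and 2B, while Myh3 and Myh8 encode the embryonic and perinatal chains of developing and regenerating fibres. The gastrocnemius is a mixed muscle made mostly of fast fibres, and denervated or regenerating fibres are known to make developmental chains again.

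Of the 6 genes 5 lie side by side on chromosome 11, in the order Myh3, Myh2, Myh1, Myh4 and Myh8 among protein-coding genes, whereas Myh7 lies on chromosome 14 beside Myh6. The promoters of the cluster are shown because its neighbouring genes Myh4 and Myh8 share sequence there while their transcripts behaved differently with age, as described below. The longest run of bases common to the promoters of Myh8, Myh1 and Myh4, taken as 250 bases before to 50 after the start, was TCAAATTATTTATAG. On either strand it was present in 3 of 32851 mouse promoters of that length (0.00913%), which are those of these 3 genes. A further run, TTCTAATTATATCC, was the longest one that Myh2 shared with all of them, and it was present in the promoters of these 4 genes alone (0.0122% of all). The stretches below are RefSeq sequence of build GRCm38.p6, plus strand, read 5′ to 3′, with both shared runs in capitals.
Myh8, chr11:67277005-67277098: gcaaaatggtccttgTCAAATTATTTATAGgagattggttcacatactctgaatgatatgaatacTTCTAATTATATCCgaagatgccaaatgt
Myh1, chr11:67199871-67199970: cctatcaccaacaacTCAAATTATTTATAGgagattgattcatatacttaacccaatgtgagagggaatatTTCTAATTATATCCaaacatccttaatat
Myh4, chr11:67237610-67237682: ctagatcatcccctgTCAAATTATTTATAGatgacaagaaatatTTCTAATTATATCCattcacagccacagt
Myh2, chr11:67170887-67170930: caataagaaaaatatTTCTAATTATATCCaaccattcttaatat

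Both runs kept their order in the 3 promoters that held them, but not their place. The longer run began 104 bases before the start in Myh8, 216 bases before it in Myh1 and 187 bases before it in Myh4, and the gap between the runs was 35 bases in Myh8, 41 bases in Myh1 and 14 bases in Myh4. The E-box CANNTG, the letters that myogenic basic helix-loop-helix factors bind, matched at 2 places in the Myh8 window and at 3 places in the Myh4 window, and 72.3% of all promoters held at least 1 match. No CANNTG was found in the Myh1 and Myh2 windows, which says only that these letters are not in the 300 bases searched. Windows of Myh3 and Myh7 held neither shared run.

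The arrays were alike in the number of probes detected, 11534 to 12593, and in median raw intensity, 74.7 to 93.8. The ends of the raw scale differed with age. The lowest raw intensity on an array was 47.3 to 54.1 in young and 55.7 to 59.3 in old muscle. The highest was 41939 to 43224 in young and 46647 to 52425 in old muscle, so raw values are not on 1 scale across ages. A probe counts as detected where its detection p-value, which sets its signal against that array's negative control beads, is under 0.05. All 6 member probes passed the filter, which asks for detection on at least 5 of the 15 arrays. The defining fibre markers were in place, with 10 of 11 skeletal muscle fibre markers measured, while the satellite cell genes Pax7 and Myf5 did not pass the filter. Old replicates 3 and 5 stood apart from the others, with mean correlations of 0.959 and 0.969 with their own group, against 0.977 to 0.992 on the other arrays. Old replicate 5 also had the lowest level of slow fibre genes of all 15 arrays. Results whose call or size moved without it are given both ways. Old replicate 5 was singled out in part by the values then tested. Results without it thus describe how far they hang on that array and add no separate support. Precision is limited by the 5 arrays per group. In RNA from muscle tissue, fewer fibres of a type and less RNA per fibre cannot be told apart.

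Myh8, the perinatal chain, was the member whose level differed with age with all 15 arrays in the test: it was higher in old muscle than in young and than in middle-aged muscle, by about 2 log2 units. The raw intensities of its brighter probe, ILMN_1223735, were 132, 115, 129, 142 and 117 in young replicates 1 to 5, 109, 133, 125, 140 and 154 in middle-aged replicates 1 to 5, and 414, 232, 675, 393 and 192 in old replicates 1 to 5. By raw value each old array was above every younger one, with replicate 3 highest and replicate 5 lowest. The share of all features that do so by raw value was not computed. After background correction and normalisation the log2 values averaged 6.10 ± 0.13 in young, 6.22 ± 0.35 in middle-aged and 8.20 ± 0.95 in old muscle (SD, n = 5 each). The spread among old mice was thus larger than that among young mice, and old replicate 5, at 6.80, lay just under middle-aged replicate 5, at 6.81, on this scale.

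**Figure D1:**
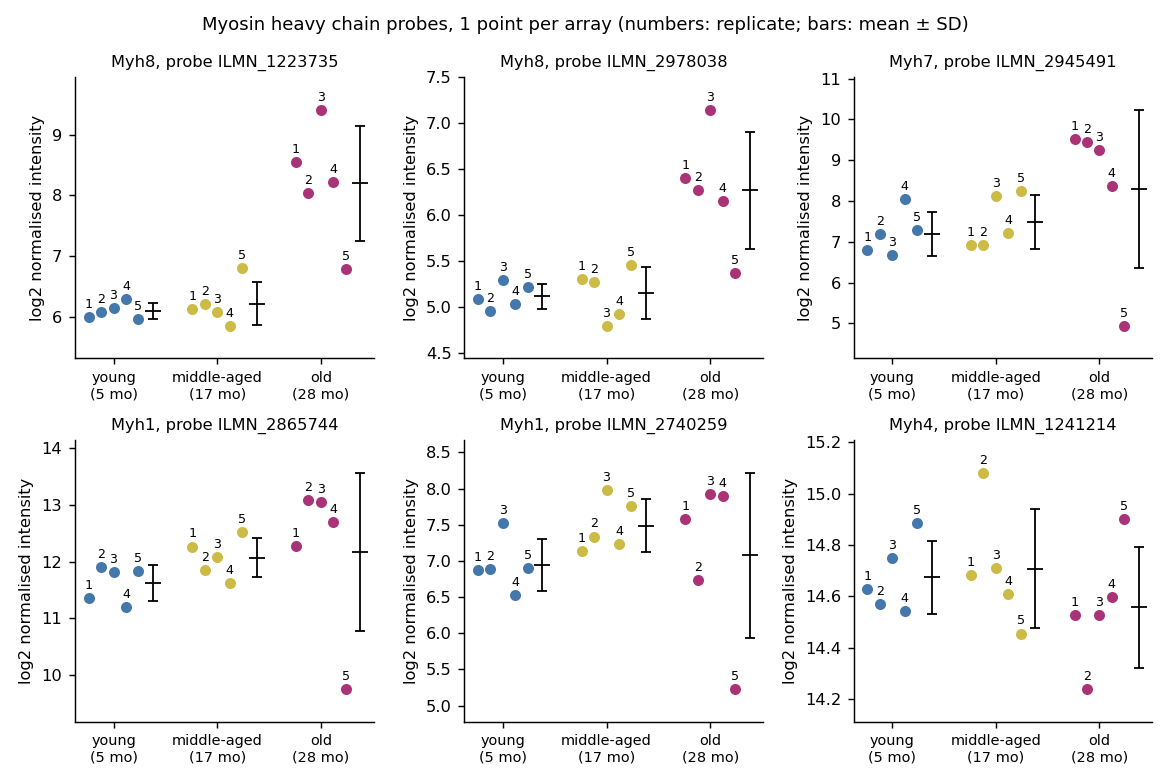
Log2 normalised intensity (y axis) of the 6 probes on each array by age group (x axis), with points numbered by replicate and bars for the mean ± SD (n = 5). Both Myh8 probes are higher in old muscle, and old replicate 5 is far below the other old arrays for Myh7 (4.94) and Myh1 (9.75 by its brighter probe).

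Against young muscle, Myh8 was 4.29-fold higher in old muscle by its brighter probe, a log2 fold change of 2.10 ± 0.32 (standard error) with a 95% interval of 1.43 to 2.77 (adjusted p = 0.00123, limma, two-sided). Adjusted p-values are Benjamini-Hochberg values over all 9470 features compared, and a gene is called where its value is under 0.05. Of the 4 genes 1 was called, where 3.31% of all features were, and 1 gene had groups that did not overlap, where 4.67% of all features did. Since normalisation adds a fixed offset of 16 before taking logs, folds of weak probes such as these are understated.

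Against middle-aged muscle, Myh8 was 3.95-fold higher in old muscle (log2 1.98 ± 0.32, 95% interval 1.31 to 2.65, adjusted p = 0.00547, limma). Here again 1 of 4 genes was called, where 0.317% of all features were. The fit of the 10 arrays of these 2 groups alone gave the same fold but lost the call (adjusted p = 0.0526, limma). None of the 4 had groups that did not overlap, where 1.5% of all features did. For Myh8 the overlap came down to the near tie between old and middle-aged replicate 5. Middle-aged and young muscle differed by 0.12 ± 0.32 (95% interval -0.55 to 0.79, adjusted p = 0.9996), so this step was within the spread between mice. None of the 4 genes was called between middle-aged and young muscle, where 0.0106% of all features were, and none of them reached an unadjusted p of 0.05.

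The later step in Myh8, from middle to old age, exceeded the earlier one by 1.86 ± 0.55 on the log2 scale (95% interval 0.70 to 3.02), with an unadjusted p of 0.00337 and an adjusted p of 0.92 by limma. None of the 4 genes passed this test of the difference between steps, which called 0.0211% of all features. Without old replicate 5 the difference was 2.21 and passed (adjusted p = 0.033), as did 0.0854% of all features.

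The other Myh8 probe, ILMN_2978038, gave a weaker signal that was likewise higher in old muscle. Its raw intensities were 98.5, 86.2, 97.2, 92.6 and 92 in young, 85.3, 94.4, 82.1, 100 and 101 in middle-aged, and 145, 118, 192, 138 and 108 in old replicates 1 to 5. It was detected on every array except middle-aged replicate 3. The raw values of all old arrays were above those of all younger ones, with replicate 3 highest and replicate 5 lowest. Here too no share over all features was computed for raw values. On the normalised log2 scale old replicate 5, at 5.37, was below middle-aged replicate 5, at 5.46, so that old and middle-aged muscle overlapped there. In the fit of every probe past the filter it was 2.22-fold higher in old than in young muscle (log2 1.15 ± 0.23, adjusted p = 0.0106, limma), and 2.17-fold higher in old than in middle-aged muscle (1.12 ± 0.23, adjusted p = 0.0418). The call against young muscle held in all 25 other settings tried, and the call against middle-aged muscle was lost in 18 of 25. Over the 15 arrays, which share the age groups, the log2 values of both Myh8 probes correlated with a Pearson r of 0.97.

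Myh7, the slow chain, was high on 4 old arrays and at its lowest on the other. Raw intensities of its probe, ILMN_2945491, were 188, 177, 161, 340 and 208 in young, 148, 184, 337, 275 and 304 in middle-aged, and 747, 493, 600, 429 and 94.4 in old replicates 1 to 5. Old replicates 1 to 4 were above all 10 younger arrays, whereas old replicate 5 was below all of them, at a signal that still counted as detected, with a detection p-value of 0.0276. Log2 values averaged 7.20 ± 0.54 in young, 7.49 ± 0.65 in middle-aged and 8.30 ± 1.94 in old muscle (SD, n = 5 each), an order in which neither step was larger than the spread.

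With all arrays, Myh7 in old muscle did not pass the test against young muscle (log2 1.11 ± 0.64, 95% interval -0.23 to 2.44, adjusted p = 0.359, limma) or against middle-aged muscle (0.82 ± 0.64, -0.52 to 2.15, adjusted p = 0.615). Both intervals reach from a decrease to an increase of more than a log2 unit. Once old replicate 5 was left out, it was 3.85-fold higher in old than in young muscle (log2 1.94 ± 0.32, adjusted p = 0.00154) and 3.15-fold higher in old than in middle-aged muscle (1.66, adjusted p = 0.0111). That array was singled out in part by its low Myh7 value, so these calls follow in part from the choice and are no separate test. In that setting 3 of the 4 genes were called against young muscle (Myh7, Myh8 and Myh1), where 7.57% of all features were, and their groups did not overlap, where 11.6% of all features did. Against middle-aged muscle 2 of the 4 genes were called (Myh7 and Myh8), where 3.26% of all features were, and did not overlap, where 5.2% of all features did. The shares over all features thus moved with that array as well.

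Myh1, the 2X chain, showed the same array apart. The brighter of its probes, ILMN_2865744, had raw intensities of 3273, 3306, 3700, 2529 and 3593 in young, 3947, 4148, 4555, 4804 and 4632 in middle-aged, and 4812, 5649, 7063, 7403 and 1114 in old replicates 1 to 5. By raw value young and middle-aged muscle did not overlap, and old replicates 1 to 4 were above both, but old replicate 5 was the lowest of all 15 arrays. No share over all features was computed for raw values, which are not on 1 scale across ages. On the normalised log2 scale the groups overlapped, with means of 11.62 ± 0.32 in young, 12.07 ± 0.35 in middle-aged and 12.17 ± 1.39 in old muscle (SD, n = 5 each).

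Old against young muscle gave a log2 fold change of 0.55 ± 0.44 for Myh1 (95% interval -0.38 to 1.48, adjusted p = 0.529, limma), and middle-aged against young muscle one of 0.45 ± 0.44 (-0.48 to 1.38, adjusted p = 0.9996). The age groups share an estimate of the spread, so old replicate 5 enters the error of both. Without that array the middle-aged against young difference was 0.45 ± 0.19 and did not pass (adjusted p = 0.731, limma). Without old replicate 5 Myh1 was 2.23-fold higher in old than in young muscle (log2 1.16, adjusted p = 0.00192), and 1.63-fold higher in old than in middle-aged muscle, which did not pass (0.71, adjusted p = 0.0603). Its weaker probe, ILMN_2740259, did not follow this. Its raw intensity was 156 to 244 in young, 164 to 313 in middle-aged and 103 to 324 in old muscle, with log2 fold changes of 0.13 ± 0.39 (adjusted p = 0.891) against young with all arrays and 0.59 without old replicate 5 (adjusted p = 0.161). The probes correlated with a Pearson r of 0.77 over 15 arrays and 0.49 over the 14 arrays without old replicate 5, so that the Myh1 result rested on 1 of its 2 probes.

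Myh4, the 2B chain and the main one of fast mouse limb muscle, differed little with age. Raw intensities of its probe, ILMN_1241214, were 27762, 21360, 26263, 24714 and 30171 in young, 22911, 32704, 27228, 32581 and 19392 in middle-aged, and 22809, 13641, 20354, 28292 and 35907 in old replicates 1 to 5. The groups overlapped throughout, and old muscle held both the lowest array (replicate 2) and the highest (replicate 5). Log2 values averaged 14.68 ± 0.14 in young, 14.71 ± 0.23 in middle-aged and 14.56 ± 0.24 in old muscle (SD, n = 5 each).

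The log2 fold change of Myh4 was -0.12 ± 0.13 in old against young muscle (95% interval -0.39 to 0.16, adjusted p = 0.673, limma) and -0.15 ± 0.13 in old against middle-aged muscle (-0.43 to 0.13, adjusted p = 0.665). These are the narrowest intervals of the 4 genes. They come from a probe near the top of the scale, with a raw intensity of 26.02% to 81.31% of the brightest probe on its array, and the old arrays, which ran from 13641 to 35907 in raw intensity, spanned only 14.24 to 14.90 after quantile normalisation. Whether the probe was near saturation was not tested. The sign of this small difference turned with the Z scores that the study's methods use (0.06 and 0.04 in units of the Z score). Without old replicate 5 it was -0.20 (adjusted p = 0.335) against young muscle.

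**Figure D2:**
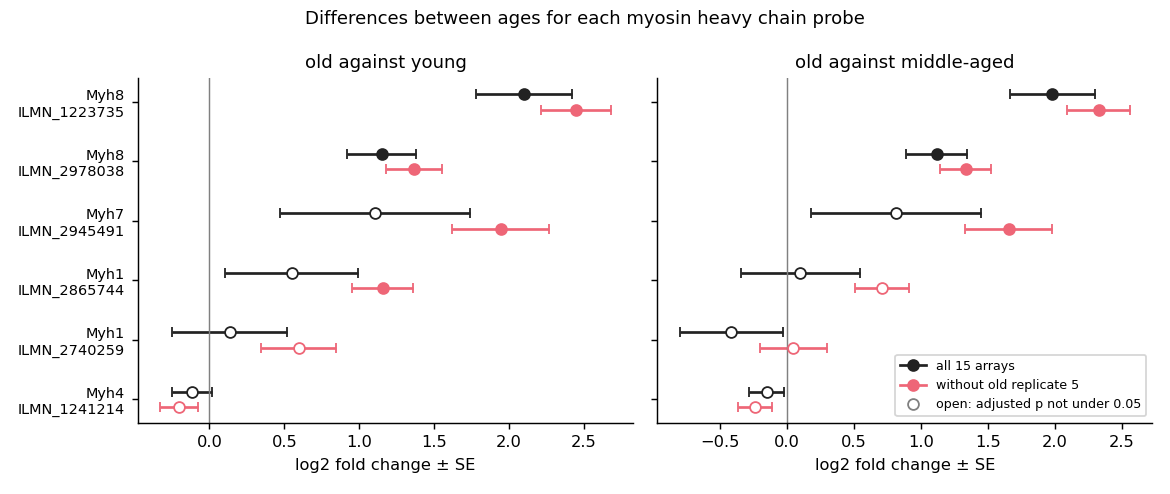
Log2 fold changes ± SE (x axis) of each probe (rows) for old against young and old against middle-aged muscle, with all 15 arrays in black and without old replicate 5 in red, filled where the adjusted p is under 0.05. Myh8 is filled throughout, and Myh7 becomes filled only without that array (1.94 and 1.66).

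The balance of adult isoforms was read within each array as the log2 difference between 2 probes. Its level depends on the probes and has no meaning of its own, so only its change with age was tested. For Myh7 minus Myh4 it was -7.83, -7.39, -8.07, -6.50 and -7.60 in young, -7.76, -8.16, -6.59, -7.40 and -6.20 in middle-aged, and -4.998, -4.79, -5.28, -6.24 and -9.97 in old replicates 1 to 5. Old replicates 1 to 3 were above all younger arrays, replicate 4 lay at their upper edge and replicate 5 was below all of them. For Myh1 minus Myh4 the values ran from -3.34 to -2.66 in young and from -3.23 to -1.93 in middle-aged muscle, and were -2.25, -1.15, -1.48, -1.89 and -5.15 in old replicates 1 to 5.

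Neither balance passed an exact two-sided permutation test over arrays. In old against young muscle Myh7 minus Myh4 differed by 1.22 (permutation p = 0.238, adjusted p = 0.619 over the 6 tests made) and Myh1 minus Myh4 by 0.67 (permutation p = 0.413, adjusted p = 0.619). With 5 arrays against 5 the smallest p such a test can give is 0.00794. Without old replicate 5 the differences were 2.15 and 1.36 against young and 1.89 and 0.94 against middle-aged muscle, each with an adjusted p of 0.0476. Against young muscle the permutation p was 0.0159 for both, the smallest that 4 arrays against 5 can give. Both balances share the Myh4 probe, and the array left out was singled out in part by such values, so these are not separate passes. With the weaker Myh1 probe and all 15 arrays the Myh1 balance was 0.25 against young muscle, and it turned to -0.26 against middle-aged muscle.

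**Figure D3:**
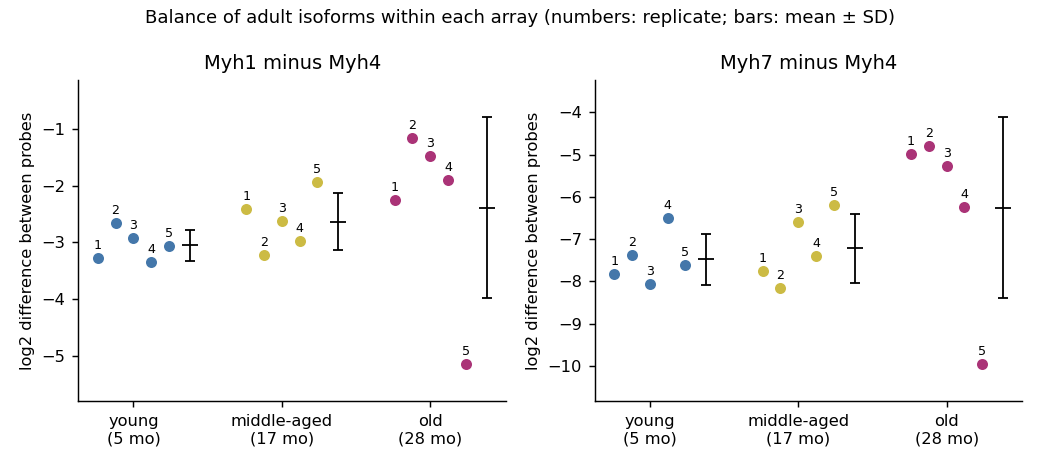
Log2 difference between the Myh1 and Myh4 probes and between the Myh7 and Myh4 probes (y axes) on each array by age (x axis), numbered by replicate, with bars for the mean ± SD. Old replicate 5 is the lowest array in both plots (-5.15 and -9.97), and the other old arrays are high.

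Gene lists for the partners of each chain, chosen with earlier results of these data known, were read beside the members. The slow fibre partners were 10 genes, all measured, for light chains, troponins, the tropomyosin Tpm3, calcium-handling proteins and the Z-disc protein Myoz2. None of them was called in old against young muscle, 9 of 10 estimates were positive, and their median log2 fold change was 0.52, beside -0.02 over all features. Myl2, the regulatory light chain of slow and ventricular muscle, had 0.65 (adjusted p = 0.23), and Casq2, the slow and cardiac calsequestrin, 0.64 (adjusted p = 0.265). Leaving out old replicate 5 gave 8 of 10 called higher, where 7.57% of all features were called in either direction. The median of the 10 was then 1.01, beside -0.03 over all features.

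Slow fibre genes moved with Myh7 from array to array. The median deviation of the 10 partners from their 15-array means was -0.77 to 0.16 in young and -0.23 to 0.27 in middle-aged muscle, and it was 0.78, 0.83, 0.21, 0.90 and -1.66 in old replicates 1 to 5. Their summed level was 34417 to 62991 in young and 47721 to 68590 in middle-aged muscle, and among old arrays it was 19086 in replicate 5 and 59040 to 98482 in the others. Tnni1, the slow troponin I, had a raw intensity of 672, 567, 409, 911 and 126 in old replicates 1 to 5, against 176 to 412 in young muscle. The order of the old arrays was not the same as for Myh7, which was highest in replicate 1. The part of the slow fibre share of each sample in the Myh7 values was not tested.

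The 10 fast fibre partners, among them the fast troponins and the fast calcium pump, had a median log2 fold change of 0.01 with none called in old against young muscle. Pvalb, parvalbumin, the calcium buffer of fast fibres, had the lowest p (0.44, adjusted p = 0.177), followed by Myl1, the fast essential light chain (0.31, adjusted p = 0.209). Their median deviation on old replicate 5 was -0.06, against 0.03 to 0.23 on the other old arrays. That array was thus lowest among the old ones in slow genes by a wide margin and in fast genes by a narrow one.

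**Figure D4:**
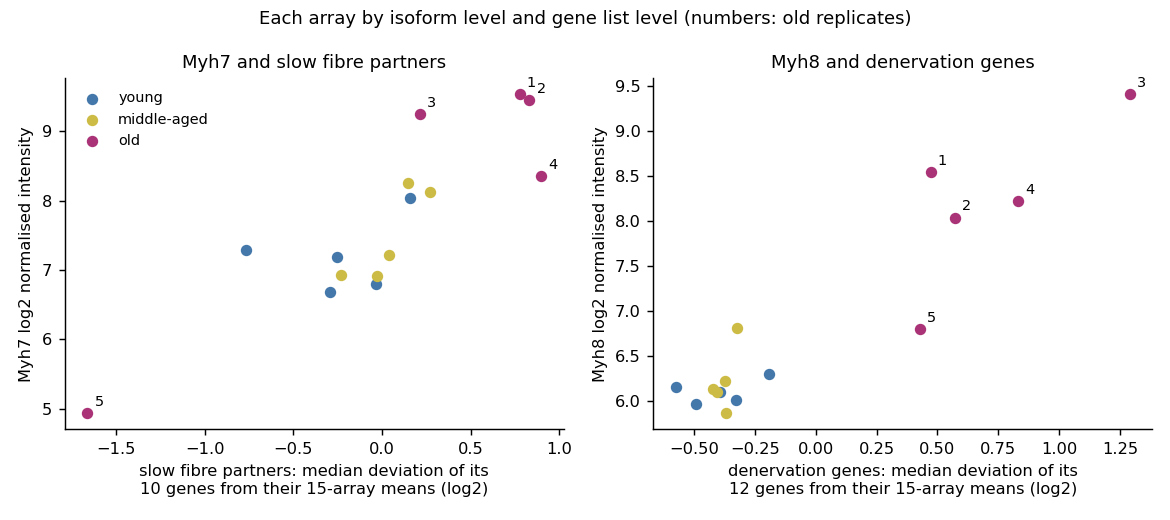
Each array's log2 normalised intensity of Myh7 against the median deviation of the slow fibre partners, and of Myh8 against that of the denervation genes (x axes, log2), coloured by age, with old replicates numbered. Old replicate 5 is at the lower left for Myh7 (-1.66), and old replicate 3 at the upper right for Myh8 (1.29).

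Myh8 was set beside 2 lists. Of the denervation genes, which muscle is known to switch on when nerve contact is lost, 12 of 14 were measured. Old against young muscle gave a median log2 fold change of 1.23 over these, beside -0.02 over all features, and 8 were called, all of them higher, where 3.31% of all features were called. They were Sln (a small inhibitor of the calcium pump), Ankrd1, Gadd45a, the acetylcholine receptor subunits Chrna1 and Chrnb1, Cdkn1a, Runx1 and Ncam1. Leaving out old replicate 5 added Chrng, for 9 of 12 called and a median of 1.37, where 7.57% of all features were called. Chrng was detected on 2 of 5 young, 0 of 5 middle-aged and 4 of 5 old arrays. It passed the filter only through the old arrays, so its call adds little to the count. The 12 genes had median deviations of 0.47, 0.57, 1.29, 0.83 and 0.43 in old replicates 1 to 5, against -0.57 to -0.19 in young muscle. Replicate 3 was the highest and replicate 5 the lowest of the old arrays, as for both Myh8 probes, while old replicate 5 was still above all younger arrays.

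Developing and regenerating fibre genes, 3 of which (Ncam1, Chrng and Myog) are on both lists, moved less. Of 16 symbols listed, among them an old and a new symbol of the same gene, 8 were measured. Their median log2 fold change was 0.26 in old against young muscle. Ncam1, the neural cell adhesion molecule of immature and denervated fibres, was the only one called (1.06 ± 0.17, adjusted p = 0.00246, limma). The fetal light chain Myl4 (0.77, adjusted p = 0.0662) and the fetal receptor subunit Chrng (1.46, adjusted p = 0.0574) did not pass, and the cardiac actin Actc1 had -1.04 (adjusted p = 0.0785). These 3 were named after their values were seen. In the fit without old replicate 5 Chrng was called as well (1.89 ± 0.30, adjusted p = 0.00112, limma). That made 2 of 8, where 7.57% of all features were called, with a median of 0.36. Chrng passed the filter only through the old arrays, as described above. Myog and Myod1, which drive myoblasts into differentiation, had 0.31 and 0.08 (adjusted p = 0.472 and 0.852). The summed level of the list, in which bright genes weigh most, was 5601 to 6179 in old, against 5451 to 7490 in young muscle. The median deviation of its genes was 0.31, 0.25, 0.22, 0.20 and -0.02 in old replicates 1 to 5, against -0.18 to -0.01 in young muscle.

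**Figure D5:**
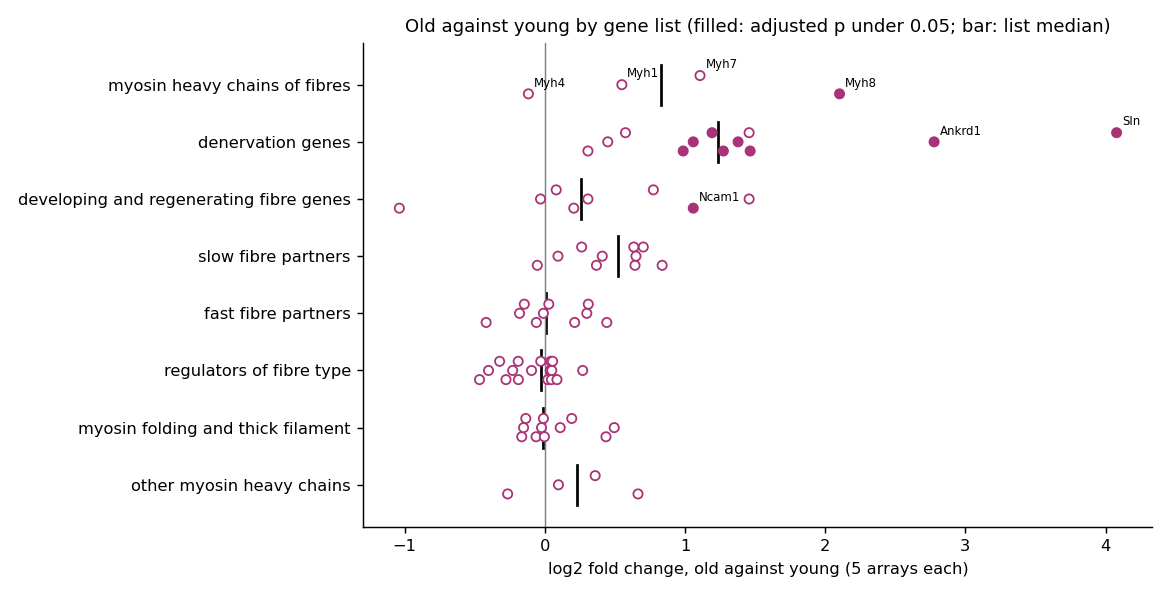
Log2 fold change of each measured gene in old against young muscle (x axis) by gene list (rows), with bars for the list medians and filled points where the adjusted p is under 0.05. Among the 4 myosin heavy chain genes Myh8 alone is filled (2.10), and 8 of 12 denervation genes are.

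The other lists held few calls. Among 17 measured regulators of fibre type, such as calcineurin and NFAT genes, none was called in old against young muscle. The lowest p values were those of Maf (-0.40, adjusted p = 0.204) and Prox1, a factor known for the slow programme (0.27, adjusted p = 0.323). By either of its probes Prox1 was detected on 0 of 5 young, 2 of 5 middle-aged and 4 of 5 old arrays. Maf was called lower without old replicate 5 (-0.53, adjusted p = 0.0469). Of 11 measured genes for myosin folding and the thick filament none was called, with the M-band protein Myom1 at 0.49 (adjusted p = 0.131) and slow myosin-binding protein C, Mybpc1, at 0.44 (adjusted p = 0.508). Mybpc1 was called higher without that array (0.85, adjusted p = 0.0168).

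Of 8 further myosin heavy chain genes 4 were measured, and none of these was called. Myh6, the cardiac alpha chain next to Myh7 on chromosome 14, had 0.66 ± 0.47 (adjusted p = 0.465) by 1 of its 2 probes, the other being detected on 0 of 15 arrays, with raw intensities of 556, 408, 351, 1013 and 155 in old replicates 1 to 5, against 201 to 533 in young muscle. Old replicate 5 was the lowest of all arrays here too, and without it Myh6 was called (1.21, adjusted p = 0.0253). The non-muscle chain Myh9 had -0.27 (adjusted p = 0.418), Myh10 had 0.36 (adjusted p = 0.511) and the smooth muscle chain Myh11 had 0.10 (adjusted p = 0.809).

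Markers of other cells were read beside the members. Of 8 macrophage marker symbols listed, among them an old and a new symbol of the same gene, 5 were measured. Lyz2, C1qb and Adgre1 were called higher in old than in young muscle, where 3.31% of all features were called. The summed level of the 5 markers was 893 to 2234 in old, against 485 to 860 in young muscle. Among the old arrays their median deviation was lowest in replicate 3 (-0.41), which had the highest Myh8. None of the 4 measured satellite cell markers was called, with a summed level of 651 to 824 in old, against 717 to 869 in young muscle. Smooth muscle (5 measured) and Schwann cell markers (4 measured) had no call, and of 5 tendon markers Kera was called lower. When each of the 15 arrays was left out in turn, Lyz2 stayed called, while Adgre1 lost its call 10 times, C1qb 5 times and Kera 3 times (without young replicate 1, young replicate 4 or old replicate 1), with adjusted p up to 0.105, 0.0671 and 0.0621 by limma. The part of these cells in the member values was not tested.

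Between members, the Pearson r of log2 values over the 15 arrays was 0.69 for Myh8 with Myh7 and 0.54 for Myh8 with the brighter Myh1 probe, and 0.86 and 0.79 without old replicate 5. Myh7 and the brighter Myh1 probe had 0.82, and 0.70 without it, and Myh4 had negative values with Myh7 (-0.70 and -0.66). The features most like each member were read by the same measure. For Myh8 the 3 nearest were Chrna1 (r = 0.96), the neurotrophic factor Gdnf (0.96) and Eda2r, a receptor of the tumour necrosis factor family (0.95). All 3 were called higher in old than in young muscle, where 3.31% of all features were called. Because they were picked by likeness to Myh8 over these same arrays, their calls follow from that choice and add no separate support. Chrna1 had raw intensities of 950, 644, 2061, 1259 and 680 in old replicates 1 to 5, against 429 to 669 in young muscle, so it too was highest in old replicate 3. The same correlations over the 14 arrays without old replicate 5 were 0.96, 0.96 and 0.95. The arrays share their age groups, and each r describes these arrays only.

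For Myh7 the nearest were Acadl, a dehydrogenase of fatty acid oxidation (r = 0.93), Egln3, a prolyl hydroxylase that acts on hypoxia-inducible factor (0.92), and Fhl1, a LIM protein of muscle (0.92). None of these was called between old and young muscle, and without old replicate 5 the values were 0.90, 0.87 and 0.87. Fhl1 had its lowest raw intensity of all arrays in old replicate 5, 10984, against 24489 to 33137 on the other old arrays. Myh1 was nearest to an unnamed probe (0.94), to Mybpc1 (0.92) and to the growth factor Fgf1 (0.91), and without old replicate 5 these values were 0.88, 0.86 and 0.86. For Myh4 the nearest were Eef1aknmt (0.82), R3hcc1l (0.81) and Tfeb (0.79), the weakest likeness of the 4 genes, and 0.80, 0.79 and 0.77 without old replicate 5.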

How the data were processed

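Total RNA of each sample was labelled and hybridised by the authors, who deposited raw, unnormalised intensities per probe from GenomeStudio 2011.1 and, for each, a detection p-value. They also deposited a score, the Z score of the natural log intensity, which recomputation from the intensities matched within 0.000924. The platform annotation names 1 gene for 23978 of the 25697 probes and leaves 1719 unnamed. The neqc function (limma 3.58.1, R 4.3.3) inferred background from detection p-values, added 16, normalised by quantiles and took log2. Probes detected at p under 0.05 on at least 5 arrays were kept (12552), and the brightest stood for each gene, which left 9470 features. A linear model over all 15 arrays, with lmFit and eBayes (intensity trend), gave two-sided tests with Benjamini-Hochberg adjustment over all features. Further member probes were read from the same model over every kept probe. The model was tested on simulated data.

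Members and gene lists were chosen with earlier results of these data known. Named were every member probe, for each list up to 4 called members by lowest p or else the 2 lowest, and the 3 features most correlated with each member. Alternatives were no background correction, median scaling, the Z scores, the deposited scores, other detection filters, every probe as a feature, array weights, no intensity trend, fits of 2 groups alone, the replicate number as a block, and leaving out each array. Probe sequences were not used here, so binding of a probe to a related isoform was not tested. Myh2 minus Myh4 was not analysed.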

Additional observations from a re-analysis of the deposited data

Results flagged for a closer look

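Among the 18 groups of 5 arrays that the 6 member probes make, 2 held an array far from the rest by Dixon's test, where chance alone marks about 1 group in 20. The Myh7 probe had a log2 value of 4.94 in old replicate 5, where the next lowest old array had 8.36. The brighter Myh1 probe had 9.75 in old replicate 5, where the next lowest old array had 12.28. Both are the same array, and its other member values are given with the results above.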

How the results depend on the processing

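Across all 26 alternatives run for it, Myh8 by its brighter probe stayed called in old against young muscle, with log2 fold changes of 1.49 to 2.45 and adjusted p from 7.06e-06 to 0.00729 on the log2 scales and the fits of 2 groups. The replicate number as a block gave 2.10 (adjusted p = 0.00505) and changed no member gene's call, while the weaker Myh8 probe in old against middle-aged muscle (adjusted p = 0.111) and the macrophage markers C1qb and Adgre1 in old against young muscle (adjusted p = 0.0551 and 0.0681) lost theirs. Same-numbered arrays correlated in their deviations from -0.50 to 0.40, with 3 of 15 pairs over 0.1. These 3 were pairs of middle-aged with young arrays (0.40, 0.15 and 0.31). The values were not set against those of differently numbered arrays, so whether the numbers pair the mice was not tested. A fit of the 10 arrays of 2 groups alone called 0 member genes in old against middle-aged muscle (Myh8 adjusted p = 0.0526). Array weights, which gave old replicate 3 the lowest weight (0.159), called 1 gene, Myh8, for a different later step. Leaving out 1 array gave 1 to 3 member genes called in old against young muscle, 1 to 2 in old against middle-aged muscle, 0 in middle-aged against young muscle and 0 to 1 for the difference between steps, and each upper end came without old replicate 5. The balances then ran from 0.36 to 1.36 (Myh1 minus Myh4) and 0.86 to 2.15 (Myh7 minus Myh4) against young muscle, and from -0.0585 to 0.945 and 0.60 to 1.89 against middle-aged muscle, with 0.25 for Myh1 minus Myh4 against young and -0.26 against middle-aged muscle by the other Myh1 probe and all arrays.

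Signs turned only for differences that passed no test in either setting. With the Z scores Myh4 had 0.0615 in old against young muscle, 0.0357 in old against middle-aged muscle and 0.00996 for the difference between steps, and the deposited scores gave 0.0614, 0.0357 and 0.00996. The weaker Myh8 probe in middle-aged against young muscle had -0.00155 with the Z scores, -0.00114 with the deposited scores and -0.00399 with array weights, and the brighter one -0.000159 with array weights. Myh1 in old against middle-aged muscle had -0.00519 with median scaling, and array weights gave 0.0527 for its difference between steps. Leaving out 1 array, the ranges that crossed 0 were -0.127 to 0.709 (Myh1, old against middle-aged), -0.574 to 0.261 (Myh1, steps), -0.0808 to 0.595 and -0.629 to 0.0488 (weaker Myh1 probe, old against young and old against middle-aged), -0.0267 to 0.209 and -0.0427 to 0.124 (brighter and weaker Myh8 probes, middle-aged against young), -0.0610 to 0.0893 and -0.293 to 0.00368 (Myh4, middle-aged against young and steps) and -0.0227 to 0.438 (Mbp, a Schwann cell marker, old against young).

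Over all features, old against young muscle had 313 calls, against 136 with median scaling, 870 with array weights, 178 with 2 groups alone and 152 to 710 without 1 array. Old against middle-aged muscle had 30, against 16 for probes detected on all arrays, 468 with weights, 15 with 2 groups and 15 to 306 without 1 array. Middle-aged against young muscle had 1, against 2 for every probe, 77 with weights, 17 with 2 groups, 2 with the block and 1 to 8 without 1 array. The difference between steps had 2, against 5 with no background correction or with either score, 1 for probes detected on all arrays, 16 with weights and 0 to 8 without 1 array. Causes were not tested. Weak signals limit the Myh8 probes most, since the weaker one was near background in young muscle.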
